A study of Rattus norvegicus with 12 samples.

Results

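The comparison set whole blood of Wistar Kyoto (WKY) rats after chronic restraint stress (CRS) against blood of WKY rats kept without stress (NS). Its libraries were those whose titles name WKY, which gave 6 of the 12 samples of the series, 3 per group. The other 6 samples, from Fischer 344 (F344) rats under the same treatments, entered the same fit and are described only for the difference in response. All animals were males aged 70 to 90 days at the start. Every rat, the NS controls included, went through contextual fear conditioning, in which a cage is paired with a foot shock, and then spent 4 weeks in its home cage. CRS rats were next held singly in plastic cones for 2 hours a day over 2 weeks, while NS rats stayed undisturbed in the home cage. Both groups then went through a second conditioning test, and blood was collected at decapitation 24 hours after its second day. NS is therefore a group without restraint, not a group without aversive experience, and both groups were sampled after the same recent conditioning. Whether every library stands for a different rat is not stated in the labels, and the tests then speak only of variation among the libraries at hand.

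WKY is an inbred strain used as a model of high stress reactivity and depression-like behaviour, and repeated restraint activates the hypothalamus, pituitary and adrenal gland. The glucocorticoids released act on the glucocorticoid receptor of blood leukocytes, induce genes such as Tsc22d3 and Fkbp5, and move lymphocytes out of the circulation. Whole blood collected in PAXgene tubes holds RNA of reticulocytes, platelets, granulocytes, monocytes and lymphocytes together. In such bulk samples, fewer cells of a type and less RNA per cell cannot be told apart.

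Counts assigned to genes ranged from 2741461 to 3570766 per WKY library, of which 88.9% to 93.8% fell on the features LOC310926, Rn5-8s and LOC257642, the 3 most abundant. All other genes shared 246647 ± 91283 counts in NS and 281591 ± 44301 in CRS (SD, n = 3), a difference smaller than the spread (two-sided exact permutation test, p = 0.6). Reads ambiguous between features made up 82.4% ± 1.55 of all reads in NS and 80.4% ± 1.86 in CRS (exact permutation test, p = 0.3). The smallest p that 3 against 3 allows is 0.1. Blood identity was plain from the most abundant genes, Hbb at 19820 to 37136 CPM (counts rescaled by library size and TMM factor) and Alas2, the first enzyme of erythroid heme synthesis, at 422 to 669 CPM.

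CRS replicate 2 stood apart from the other 5 WKY libraries. On the first principal component, with 30.1% of the variance, it lay at 30.04, and the others lay between -17.2 and -1.35. A rule was set after the values were seen. It asked for at least 20 counts in 1 library and more than 10 times the highest count elsewhere with 1 added. CRS replicate 2 alone of the 12 libraries held genes that met it. These 3 genes were Spt1, a salivary protein gene, with 345 counts and 0 in the other 11 libraries, Ttr, the thyroid hormone carrier transthyretin, with 57 against at most 1, and Lpo, a peroxidase of secretions, with 27 against at most 1. Other genes were looked up after these values were seen. Of these, Enpp2, which like Ttr is strongly expressed in the choroid plexus, had 22 counts there and at most 2 elsewhere. The liver genes Alb and Apoa1 and the salivary genes Amy1a and Bpifa2 each had 0 counts there. The source of the counts was not tested. The log2 fold changes of 93 single genes and the medians of 30 lists were also computed without each WKY library in turn. Of the 93 single genes 58 moved by more than 1.5 times without at least 1 library, 29 of them without CRS replicate 2, and 9 changed sign. Of the 30 list medians 29 moved by more than 1.5 times, all but MHC class II, and 15 changed sign. Many of the larger moves are given beside the values. Others are not, so a value printed alone is not thereby stable.

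Across genes, restraint gave no change in WKY blood that passed multiple testing. The edgeR quasi-likelihood test called 0 of 2781 tested genes (0%) at a Benjamini-Hochberg adjusted p of 0.05, with a smallest adjusted p of 0.151, and DESeq2 and limma-voom also called 0. At an unadjusted p under 0.05 there were 161 genes (5.79%), where 139.05 are expected if no gene differs, of which 83 were higher (2.98%) and 78 lower (2.8%). DESeq2 gave 107 such genes and limma-voom 130. The 3 CRS libraries lay wholly above the 3 NS libraries for 137 genes (4.93%) and wholly below for 144 (5.18%). Log2 fold changes were centred close to 0, with 1425 genes above 0 (51.2%), a median of 0.02 and a median size of 0.31. Leaving out CRS replicate 2 gave 0 called genes, and 154 at an unadjusted p under 0.05.

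**Figure D1:**
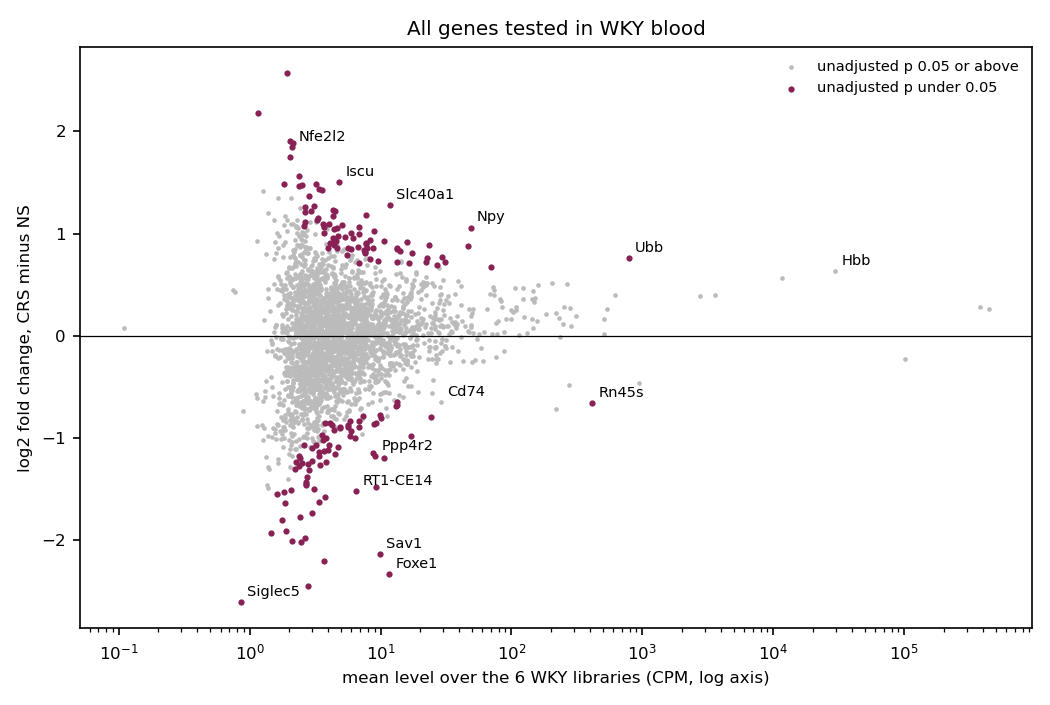
Log2 fold change (CRS minus NS, 3 libraries each) against mean level over the 6 WKY libraries, in CPM on a log axis, for each of the 2781 genes tested. Dark points are the 161 genes with an unadjusted p under 0.05, and no gene passed after adjustment. The median size of the log2 fold change falls from 0.45 under 3 CPM to 0.17 between 20 and 50 CPM and is 0.26 at 50 CPM and over.

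The depth limited what could be seen. A 95% interval of the log2 fold change lay wholly within a 2-fold change for 756 genes (27.2%). That share was 0.758% of the 792 genes under 3 CPM, 48.4% of the 641 genes between 5 and 10 CPM, 74.8% of the 123 genes between 20 and 50 CPM, and 62.5% of the 72 genes at 50 CPM and over. For most genes under 5 CPM the interval therefore did not exclude a 2-fold difference.

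Named genes follow a rule of size and separation, and none of them passed the adjusted threshold. Of genes averaging at least 5 CPM whose groups did not overlap, the 10 with the smallest p in each direction are given. The gene with the smallest p among those higher was Slc40a1, which encodes ferroportin, the only known cellular iron exporter. It read 9.67, 6.23 and 4.26 CPM in NS replicates 1, 2 and 3, against 13.2, 17.9 and 19.7 CPM in CRS replicates 1, 2 and 3. All CRS libraries lay above all NS libraries, and the log2 fold change was 1.28 (SE 0.35, edgeR adjusted p = 0.517). Stat5b, a transcription factor downstream of cytokine receptors, read 3.91, 3.28 and 6.97 CPM in NS and 7.64, 15.3 and 9.20 CPM in CRS (log2 1.18, edgeR adjusted p = 0.644). The CRS values were led by replicate 2, without which the log2 fold change was 0.87.

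The remaining 8 higher genes had log2 fold changes between 0.81 and 1.09. Rptor encodes raptor, the scaffold of the growth-regulating kinase complex mTORC1, and read 2.30, 3.93 and 3.48 CPM in NS against 4.33, 10.03 and 6.57 CPM in CRS (log2 1.09). Ptgs1, the cyclooxygenase that platelets use for thromboxane, read 7.83, 3.28 and 1.55 CPM against 8.92, 10.5 and 9.20 CPM (log2 1.06). Its NS libraries spread over a wide range, and without NS replicate 1 the log2 fold change was 1.95. The others were Nck2, an adaptor between tyrosine kinases and actin (log2 1.00), Cmip, an adaptor studied in T cells (log2 1.00), and H3f3b, which encodes the histone variant H3.3 (log2 0.93). Mapre2, a binder of growing microtubule ends (log2 0.91), Dnajb2, a co-chaperone of Hsp70 (log2 0.86), and Dazap2 (log2 0.81) completed the set. Adjusted p of all 8 was 0.787 (edgeR).

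Lower genes were led by RT1-CE14, a class I gene of the rat major histocompatibility complex (MHC). It read 12.7, 4.59 and 12.0 CPM in NS and 4.33, 2.18 and 3.29 CPM in CRS, so that NS replicate 2 lay just above CRS replicate 1 (log2 -1.53, SE 0.45, edgeR adjusted p = 0.615). Rem2, a small GTPase that restrains calcium channels, read 8.52, 21.0 and 11.6 CPM in NS and 4.08, 6.11 and 4.60 CPM in CRS (log2 -1.48, edgeR adjusted p = 0.615). Ppp4r2, a regulatory subunit of protein phosphatase 4, read 7.37, 10.8 and 20.1 CPM in NS and 5.35, 4.80 and 6.24 CPM in CRS (log2 -1.18, edgeR adjusted p = 0.633). NS replicate 3 held the highest Ppp4r2 value, and without that library the log2 fold change was -0.70.

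Hmox2-ps1, a pseudogene of heme oxygenase 2, had the tightest groups among the lower genes. Its NS libraries stood at 29.5, 35.1 and 28.6 CPM and its CRS libraries at 18.8, 17.9 and 16.8 CPM, a log2 fold change of -0.80 (SE 0.28, edgeR adjusted p = 0.770). As a pseudogene it may share reads with its parent gene, so its level is uncertain. Trim25, a ubiquitin ligase of antiviral RNA sensing, read 7.60, 6.88 and 8.90 CPM in NS and 3.31, 4.36 and 4.60 CPM in CRS (log2 -0.94). The remaining 5 had log2 fold changes from -1.15 to -0.81. They were Invs, a protein of primary cilia (-1.15), Safb2, a nuclear scaffold and RNA binding protein (-1.001), Cdc42se2, which binds the GTPase Cdc42 (-0.87), Vps13b, a lipid transfer protein (-0.86), and Ppp1r9b, the scaffold spinophilin (-0.81). Invs stood at -0.68 without NS replicate 3, and Safb2 ran from -1.58 without CRS replicate 1 to -0.65 without CRS replicate 3.

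In the current RefSeq annotation of the rat genome (build GRCr8), 7 of these 20 genes overlap another gene, among them Slc40a1 (Asnsd1), Dazap2 (Smagp), RT1-CE14 (RT1-CE12) and Invs (Tex10). Whether the counting used strand is not given in the sources used here, so their levels are uncertain to that extent.

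**Figure D2:**
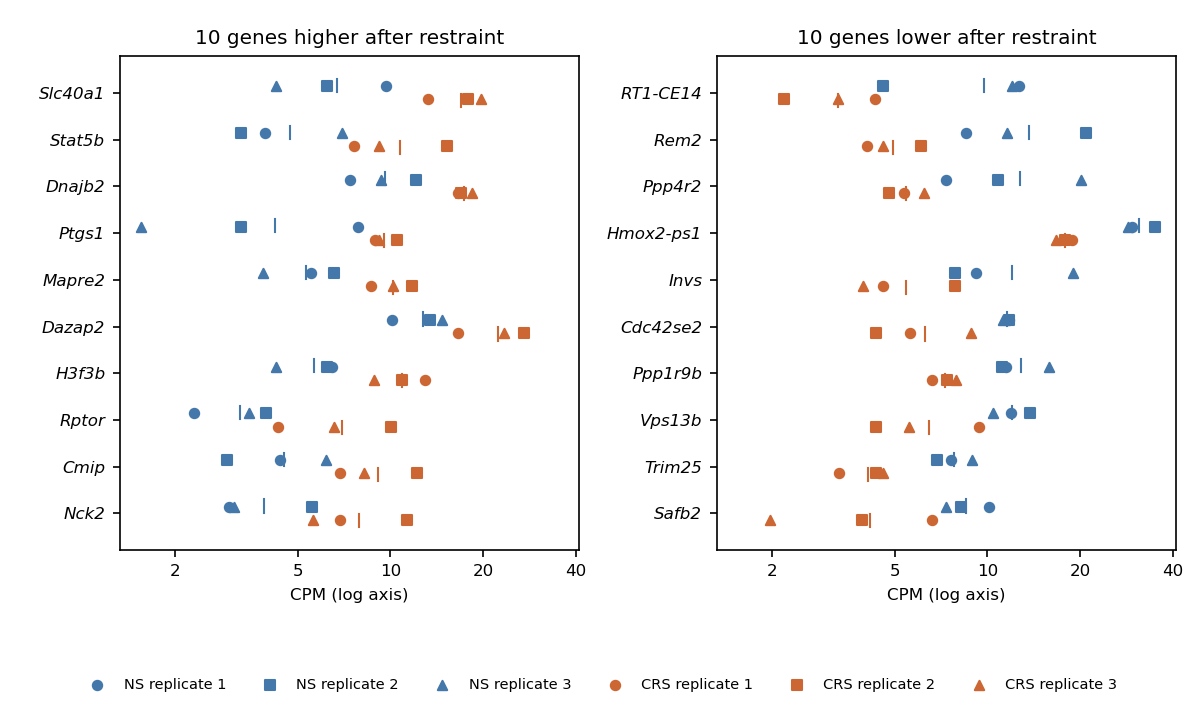
Level of the 10 higher and 10 lower genes in each WKY library, in CPM on a log axis, with marker shape giving the replicate and short vertical lines the group means. Groups do not overlap because the rule required it, and the CRS and NS values of several genes, such as Nck2 and Invs, nearly touch.

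Of genes averaging at least 50 CPM, Ubb, a polyubiquitin gene highly expressed in reticulocytes, read 478, 711 and 559 CPM in NS and 848, 1533 and 578 CPM in CRS (log2 0.76, edgeR adjusted p = 0.787). The groups overlapped, and without CRS replicate 2 the log2 fold change was 0.30. The actin genes Actg1 (log2 0.67) and Actb (log2 0.50) were higher in every CRS library than in any NS library, Actb at 257, 239 and 168 CPM in NS against 262, 371 and 310 CPM in CRS. Fth1, the ferritin heavy chain, followed with log2 0.50 and overlapping groups, and with 0.24 without NS replicate 3. Rn45s, the ribosomal RNA precursor, was lower in every CRS library, at 494, 569 and 460 CPM in NS and 289, 344 and 332 CPM in CRS (log2 -0.66, edgeR adjusted p = 0.787). Other lower genes at this level included Macf1, Ranbp10 and the RNA component Rmrp, with log2 fold changes between -0.25 and -0.15 and overlapping groups, and the sign of Rmrp changed on leaving out a library. The 3 dominant features had log2 fold changes of 0.26 (LOC310926), 0.28 (Rn5-8s) and -0.23 (LOC257642), each of which changed sign on leaving out a single library.

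Platelet markers lay on the higher side as a list. All 15 tested members of the 30 listed had log2 fold changes above 0, with a median of 0.55 beside 0.02 over all genes tested. At an unadjusted p under 0.05, 5 of the 15 were higher and 0 lower, beside 2.98% higher of all genes, and 3 lay wholly above the NS libraries, beside 4.93%. Members share cells and libraries and are not independent. Pf4, platelet factor 4, a chemokine of platelet granules, read 26.7, 27.9 and 10.1 CPM in NS and 28.3, 40.6 and 42.7 CPM in CRS (log2 0.77, edgeR adjusted p = 0.787). CRS replicate 1 lay barely above the NS libraries, and NS replicate 3 was low, without which the log2 fold change was 0.45.

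Nrgn, a calmodulin binding protein known from platelets and neurons, read 5.53, 7.86 and 3.48 CPM in NS and 5.60, 22.7 and 7.89 CPM in CRS (log2 1.02). A single library, CRS replicate 2, carried this difference, which was 0.24 without it. Alox12, the platelet lipoxygenase (log2 0.92, and 0.57 without CRS replicate 2), F13a1, the clotting factor XIII subunit (log2 0.83), and Clec1b, a platelet activating receptor (log2 0.75), had overlapping groups. The tetraspanin Cd9 read 10.4, 11.5 and 11.2 CPM in NS and 12.5, 18.3 and 20.04 CPM in CRS (log2 0.61). Below these lay Thbs1 (log2 0.52, and 0.22 without CRS replicate 2), Vwf (log2 0.48, and 0.26 without it) and the integrin chain Itgb3 (log2 0.40, and 0.22 without NS replicate 3). The smallest values were those of Gp5 (log2 0.37), Gp1ba (log2 0.10) and Treml1 (log2 0.02), all platelet surface receptors.

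The summed level of all platelet genes in the files was 197, 185 and 106 CPM in NS and 179, 311 and 267 CPM in CRS. These sums overlapped, since CRS replicate 1 lay below NS replicates 1 and 2. The list median was 0.40 without NS replicate 3 and 0.41 without CRS replicate 2, and it stayed between 0.40 and 0.84 when each WKY library was left out in turn. Npy, neuropeptide Y, a transmitter of sympathetic nerves that rat megakaryocytes also make, read 33.8, 41.0 and 19.7 CPM in NS and 39.99, 91.6 and 67.4 CPM in CRS (log2 1.06, SE 0.34, edgeR adjusted p = 0.690). Like the platelet sum, its lowest value was in NS replicate 3 and its CRS replicate 1 fell among the NS libraries. Slc6a4, the serotonin transporter that loads platelets with serotonin, read 2.76, 3.60 and 0.774 CPM in NS and 1.02, 8.29 and 6.90 CPM in CRS, again with overlap (log2 1.05, and 0.63 without CRS replicate 2).

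Globin transcripts stood higher in every CRS library once summed. The sums were 33115, 31185 and 24625 CPM in NS and 41704, 45349 and 45791 CPM in CRS, a ratio of means of 1.49. All 6 tested globin genes had log2 fold changes above 0, with a median of 0.39 that was 0.13 without NS replicate 3 and 0.58 without NS replicate 1. Hbb made up most of the sum and read 25365, 24870 and 19820 CPM in NS against 34508, 37136 and 36942 CPM in CRS (log2 0.63, SE 0.37, edgeR adjusted p = 0.960). As a raw share of gene counts, globin was 3.34% ± 1.15 in NS and 4.16% ± 0.619 in CRS (SD, n = 3, two-sided exact permutation test, p = 0.4). The groups overlapped in this share, unlike on the TMM scale. It uses no scaling but moves with the 3 dominant features, which hold 88.9% to 93.8% of gene counts. Of the counts outside them, globin held 143827 of 347841, 95172 of 221592 and 63622 of 170507 in NS. In CRS it held 163725 of 319116, 103977 of 232721 and 139371 of 292937. Globin genes are near-identical copies, and reads shared between copies may sit among the ambiguous reads, whose share was 2.02 percentage points lower in CRS. The part of that in the globin sum was not tested.

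Other genes of red cell formation were less uniform. Of 23 tested red cell precursor markers 15 were above 0 (median 0.23), and without CRS replicate 2 the median was -0.07. At an unadjusted p under 0.05 there were 0, beside 5.79% of all genes. Alas2 read 519, 534 and 422 CPM in NS and 538, 669 and 563 CPM in CRS (log2 0.26). Nfe2, a transcription factor of red cells and megakaryocytes (log2 0.54, and 0.25 without CRS replicate 2), and Car2, carbonic anhydrase 2 (log2 0.48), were the members with the largest positive values. Genes of reticulocyte maturation, ubiquitin and mitophagy had 14 of 24 members above 0 (median 0.17, and -0.12 without CRS replicate 2).

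**Figure D3:**
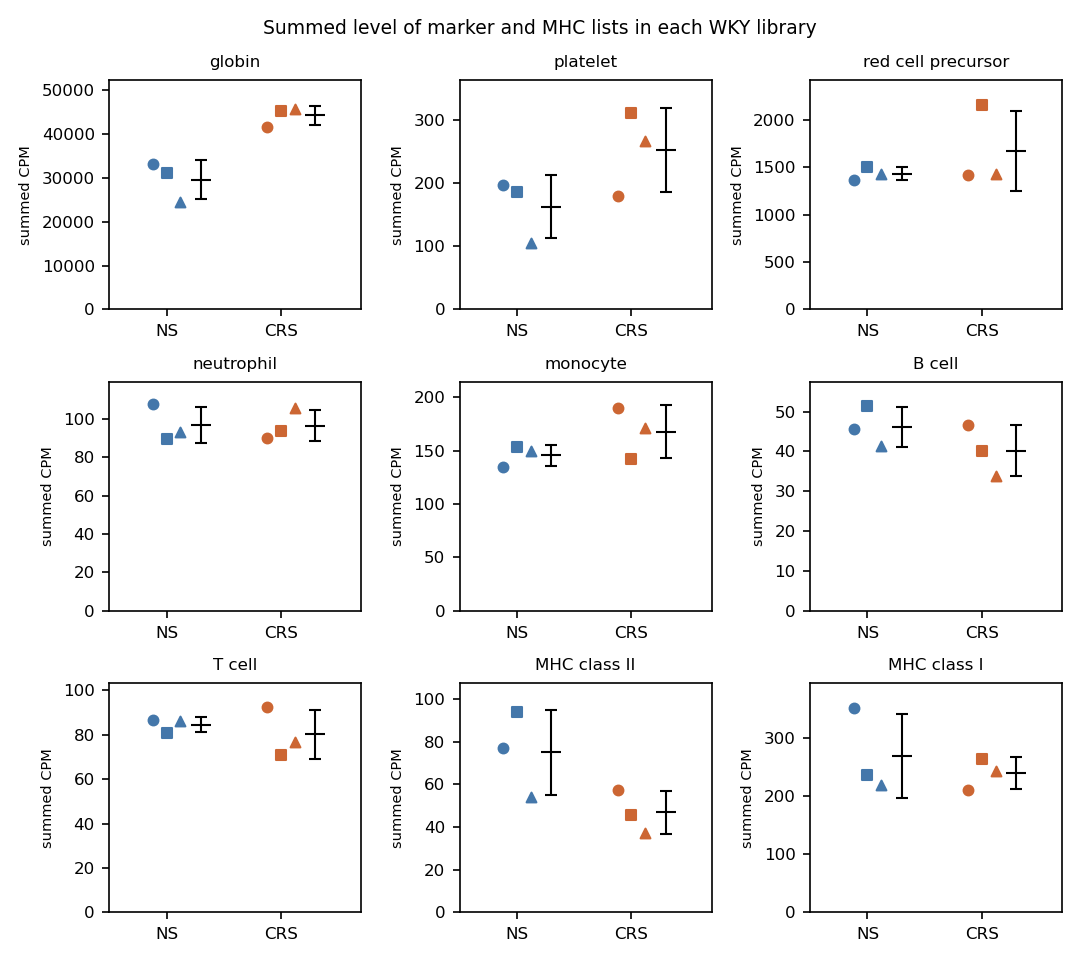
Summed level in CPM of 9 lists of genes in each WKY library, with marker shape giving the replicate and the bars the mean ± SD of 3 libraries, on linear axes that start at 0. Globin separates the groups, and the platelet and red cell precursor sums are highest in CRS replicate 2.

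In the list of heme synthesis and iron genes, 16 of 21 tested members were above 0 (median 0.26), 2 had an unadjusted p under 0.05 and were higher, beside 2.98% of all genes, and 3 lay wholly above the NS libraries, beside 4.93%. Besides Slc40a1, the second was Iscu, the scaffold on which iron-sulfur clusters are built, which was singled out after its values were seen. It read 2.53, 2.62 and 2.32 CPM in NS and 6.62, 6.98 and 7.89 CPM in CRS (log2 1.501, SE 0.39, edgeR adjusted p = 0.376). Both groups were tight, and the log2 fold change stayed between 1.43 and 1.56 whichever library was left out. Ftl1, the ferritin light chain, read 150, 232 and 120 CPM in NS and 144, 472 and 106 CPM in CRS (log2 0.52). Its mean was set by CRS replicate 2, without which the log2 fold change was -0.41, and the list median was 0.04 without that library and 0.05 without NS replicate 1.

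Antioxidant genes also lay mostly on the higher side, with 14 of 15 above 0, a median of 0.28 (0.36 without CRS replicate 2), and 2 higher at an unadjusted p under 0.05, beside 2.98% of all genes. Nfe2l2, which encodes NRF2, the transcription factor that induces this programme, read 1.15, 0.655 and 0.774 CPM in NS and 2.80, 4.36 and 2.96 CPM in CRS (log2 1.85, SE 0.63, edgeR adjusted p = 0.740). These levels rest on 2 to 11 counts per library. Gsr, glutathione reductase, read 3.91, 4.92 and 1.94 CPM in NS and 7.39, 6.54 and 7.56 CPM in CRS (log2 0.97). Catalase, Cat, was better measured, at 55.7, 59.3 and 62.7 CPM in NS and 72.3, 81.6 and 82.1 CPM in CRS (log2 0.41, SE 0.30, edgeR adjusted p = 0.975). For all 3 the groups did not overlap. These were the only 3 of the 15 wholly above the NS libraries, beside 4.93% of all genes. Sod2, the mitochondrial superoxide dismutase, had a log2 fold change of 0.72 with overlapping groups, and 0.40 without NS replicate 3. The single member below 0 was Gclm (log2 -0.23), also with overlapping groups.

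MHC class II genes lay on the lower side. These genes encode the surface molecules with which B cells, monocytes and dendritic cells present peptides to CD4 T cells, and the coactivator CIITA switches them on. All 6 tested members of the 16 listed had log2 fold changes below 0, with a median of -0.92 beside 0.02 over all genes. At an unadjusted p under 0.05, 3 were lower, beside 2.8% of all genes. Of the 6, 0 had groups that did not overlap, beside 4.93% higher and 5.18% lower of all genes. The summed level of the class II genes was 77.1, 93.7 and 54.2 CPM in NS and 57.6, 45.8 and 37.5 CPM in CRS, where NS replicate 3 fell below CRS replicate 1.

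Cd74, the invariant chain that guides class II molecules, was the most abundant, at 32.9, 48.2 and 25.5 CPM in NS and 27.0, 25.7 and 15.1 CPM in CRS (log2 -0.65, SE 0.34, edgeR adjusted p = 0.890, and -0.35 without NS replicate 2). Ciita read 8.75, 7.86 and 5.42 CPM in NS and 5.60, 4.80 and 1.64 CPM in CRS (log2 -0.87, edgeR adjusted p = 0.787). Without CRS replicate 3 its log2 fold change was -0.49. NS replicate 3 lay just under CRS replicate 1 for Ciita, and NS replicates 1 and 2 lay above all CRS libraries. The class II chain RT1-Ba read 5.30, 6.88 and 3.48 CPM in NS and 3.82, 0.436 and 2.30 CPM in CRS (log2 -1.13, and -0.74 without CRS replicate 2).

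RT1-Db1 had log2 -1.53, RT1-DMb -0.97 and RT1-Da -0.43, the first from at most 18 counts per library. Without NS replicate 2, RT1-DMb stood at -0.53 and RT1-Da at -0.21, and RT1-Db1 stood at -3.04 without CRS replicate 3. The list median was between -1.16 and -0.67 when each WKY library was left out in turn, and -0.82 without CRS replicate 2. Because the class II members lay on the same side, the upstream sequences of those with a match to the Y box are shown. The Y box is the element of class II promoters that holds an inverted CCAAT motif and is bound by NF-Y. The letters CTGATTGG, a form of it, were searched on both strands in the 150 bases before each gene's start in RefSeq (build GRCr8, while the counts were made on rn6). They were found in 3 of the 4 tested class II genes with an entry, RT1-Ba, RT1-Da and RT1-Db1 but not Cd74, and in 820 of all 33469 promoters (2.45%). The sequences are upstream of the start, 5′ to 3′ on the gene's strand, with the matched letters in capitals.
RT1-Ba (chr20:4576907-4577056, plus strand): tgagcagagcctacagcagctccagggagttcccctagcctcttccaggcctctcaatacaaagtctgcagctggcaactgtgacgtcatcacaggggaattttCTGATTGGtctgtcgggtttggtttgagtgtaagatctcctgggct
RT1-Da (chr20:4515265-4515414, plus strand): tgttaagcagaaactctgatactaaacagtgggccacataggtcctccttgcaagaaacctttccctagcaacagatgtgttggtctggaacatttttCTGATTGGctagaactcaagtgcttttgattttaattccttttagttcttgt
RT1-Db1 (chr20:4560163-4560312, minus strand): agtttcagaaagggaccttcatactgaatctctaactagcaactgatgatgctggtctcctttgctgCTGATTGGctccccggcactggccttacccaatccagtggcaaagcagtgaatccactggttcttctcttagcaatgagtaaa
The match began 46 bases before the start in RT1-Ba, 52 in RT1-Da and 83 in RT1-Db1. It is a match of letters, not a measured site, and no match in Cd74 says only that these letters are absent from that window.

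MHC class I members were mostly on the lower side. Of 16 tested, 11 were below 0 (median -0.43) and 4 were lower at an unadjusted p under 0.05, beside 2.8% of all genes. The median was -0.09 without NS replicate 1, -0.80 without NS replicate 2 and -0.05 under the stricter count filter. Besides RT1-CE14, these were RT1-A2, a classical class I gene, at 35.7, 12.1 and 20.5 CPM in NS and 7.90, 10.5 and 16.8 CPM in CRS (log2 -0.98, edgeR adjusted p = 0.764), RT1-CE15 (log2 -0.98) and Tap2, a chain of the peptide transporter. Without NS replicate 1, RT1-A2 stood at -0.45 and RT1-CE15 at -0.39. Tap2 read 5.76, 5.57 and 6.97 CPM in NS and 1.02, 3.93 and 3.61 CPM in CRS (log2 -1.16, edgeR adjusted p = 0.787, and -0.68 without CRS replicate 1). The light chain shared by all class I molecules, B2m, was at 104, 74.1 and 41.8 CPM in NS and 74.6, 92.03 and 74.3 CPM in CRS (log2 0.12), and RT1-S3 had log2 0.10. Both changed sign on leaving out a single library. The summed class I level overlapped between groups, at 268 ± 71.5 CPM in NS and 239 ± 27.0 CPM in CRS. Class I genes are near copies that differ between strains, and the reference is not a WKY genome, so single members are uncertain.

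Markers of the cells that carry class II molecules did not separate the groups. B cell markers had sums of 46.1 ± 5.04 CPM in NS and 40.2 ± 6.39 CPM in CRS. At an unadjusted p under 0.05 there were 0 of 9 tested, beside 5.79% of all genes. Of the 9, 8 were below 0 (median -0.23, and -0.02 without CRS replicate 3). The exception was Cd37, a tetraspanin, at 5.99, 5.90 and 5.81 CPM in NS and 12.99, 6.11 and 7.56 CPM in CRS (log2 0.62, and 0.22 without CRS replicate 1). Monocyte markers had 5 of 8 above 0 (median 0.14), with sums of 146 ± 9.96 and 168 ± 24.5 CPM, and Lyz2, lysozyme, had log2 0.28. The part of cell numbers in the class II values was not tested.

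Neutrophil and T cell markers differed by less than the spread between libraries. Neutrophil sums were 96.8 ± 9.52 CPM in NS and 96.4 ± 8.10 CPM in CRS, with 7 of 11 members above 0 and a median of 0.15. That median was -0.24 under the stricter count filter and -0.16 in the WKY libraries alone. Against the majority, the receptor Csf3r had log2 -0.23 with a 95% interval from -0.84 to 0.37. T cell sums were 84.6 ± 3.44 and 80.1 ± 11.2 CPM, with 7 of 17 members above 0 and a median of -0.08. Cd247, the zeta chain of the T cell receptor, had the largest positive value among T cell markers of at least 5 CPM (log2 0.63). Genes of leukocyte trafficking had 7 of 17 above 0 (median -0.01). In that list Itga4, an integrin chain, had log2 0.53. Siglec5, the single tested marker of eosinophils, basophils and mast cells, read 1.15, 2.62 and 0.774 CPM in NS and 0.255, 0 and 0.329 CPM in CRS (log2 -2.61, edgeR adjusted p = 0.740), which rests on at most 8 counts per library. The other markers of those cells fell under the count filter. The summed level of the whole list was 5.30, 7.21 and 4.64 CPM in NS and 4.33, 9.60 and 1.97 CPM in CRS, with overlap. Siglec5 therefore does not stand for the list.

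Glucocorticoid-responsive genes lay on both sides. Of 16 tested, 10 were above 0 (median 0.31), 1 was higher at an unadjusted p under 0.05, beside 2.98% of all genes, and 2 lay wholly above the NS libraries, beside 4.93%. Of the 39 list sums, only those of the globin, glucocorticoid-responsive and interferon lists did not overlap between groups. With 3 against 3 libraries, no separation can have an exact p under 0.1. For the glucocorticoid-responsive genes the summed level was 183, 193 and 208 CPM in NS and 224, 287 and 216 CPM in CRS. Most of that sum was Glul, glutamine synthetase, at 90.0, 119 and 99.9 CPM in NS and 127, 199 and 101 CPM in CRS, whose groups overlapped (log2 0.46, and 0.15 without CRS replicate 2). The list median was 0.15 without that library, 0.06 without CRS replicate 3, 0.10 without NS replicate 3 and 0.11 without NS replicate 2.

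The classical markers differed in sign. Tsc22d3, also known as GILZ, read 8.52, 9.17 and 16.6 CPM in NS and 15.0, 8.72 and 22.01 CPM in CRS (log2 0.45, 95% interval -0.25 to 1.15), and without CRS replicate 3 the log2 fold change was 0.12. Fkbp5, the co-chaperone that dampens the receptor, read 5.30, 3.28 and 1.94 CPM in NS and 4.08, 0.872 and 2.30 CPM in CRS (log2 -0.49, 95% interval -1.48 to 0.50), which became -0.0012 without NS replicate 1 and -1.12 without CRS replicate 1. Per1, a clock gene with a glucocorticoid response element, had log2 0.51 with an interval from -0.60 to 1.62, and stood at 0.015 without NS replicate 1 and 1.26 without NS replicate 3. All 3 intervals include 0 and reach past a 2-fold change in one direction. Cxcr4, a chemokine receptor of leukocyte homing, read 0.691, 2.29 and 6.58 CPM in NS and 5.60, 8.29 and 4.60 CPM in CRS (log2 1.05, edgeR adjusted p = 0.787). It ranged from 0.50 without NS replicate 1 to 2.099 without NS replicate 3. Dusp1 (log2 0.49), Ddit4 (log2 0.69) and Anxa1 (log2 0.48) were also above 0, with Dusp1 at 0.059 and Anxa1 at 0.21 without CRS replicate 3.

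The receptor itself, Nr3c1, read 7.37, 6.88 and 5.03 CPM in NS and 5.86, 3.05 and 5.59 CPM in CRS (log2 -0.39, edgeR adjusted p = 0.975, and -0.18 without CRS replicate 2). Of 8 tested genes of the receptor complex, 6 were below 0 (median -0.14). The chaperones Hsp90ab1 (log2 0.08) and Hspa8 (log2 0.07) lay near 0, with signs that changed on leaving out a library. Among heat shock genes, Hspa1b, the inducible Hsp70, read 3.68, 1.97 and 3.48 CPM in NS and 1.27, 0.872 and 1.97 CPM in CRS (log2 -1.11, edgeR adjusted p = 0.886). The heat shock list had a median of -0.44 over 9 genes, which was -0.10 without CRS replicate 3, -0.17 without CRS replicate 1 and 0.07 over the 5 genes tested in the WKY libraries alone.

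Inflammatory and interferon genes had medians closer to that of all genes. Il1b, interleukin 1 beta, read 11.7, 11.8 and 4.64 CPM in NS and 12.5, 12.2 and 11.8 CPM in CRS (log2 0.35, edgeR adjusted p = 0.975). Only NS replicate 3 was clearly lower for Il1b, and without it the log2 fold change was 0.054. Of 11 tested inflammatory and NF-kB genes 9 were above 0 (median 0.16). At an unadjusted p under 0.05 there were 0, beside 5.79% of all genes. Of 33 interferon-stimulated genes 22 were above 0 (median 0.07), and Irf7, the most abundant, had log2 0.28 with an interval from -0.29 to 0.84. The summed level of the interferon list was 743, 721 and 704 CPM in NS and 751, 914 and 782 CPM in CRS. These sums did not overlap, though CRS replicate 1 lay barely above NS replicate 1. Immediate early genes had 3 of 10 above 0 (median -0.19, and -0.05 without NS replicate 1). Among them Klf2, a quiescence factor of T cells and endothelium, had log2 -0.63, and -0.24 without NS replicate 3.

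Ribosomal, respiratory, translation and splicing lists had medians between -0.21 and 0.12. Ribosomal protein genes had 47 of 73 above 0 (median 0.12, and 0.01 without CRS replicate 2). At an unadjusted p under 0.05, 3 of the 73 were higher and 1 lower, beside 2.98% and 2.8% of all genes. Among them were Rpl29 (log2 0.76, and 0.41 without CRS replicate 2) and Rpl41 (log2 -0.68). Oxidative phosphorylation genes had 6 of 12 above 0 (median 0.00) and translation factors 15 of 30 (median 0.01). Splicing factors had 9 of 28 above 0 (median -0.21, and -0.04 without CRS replicate 2). In the JAK-STAT list 8 of 19 were above 0 (median -0.03), and the interleukin 4 receptor Il4r, at log2 -0.56, lay opposite to Stat5b.

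**Figure D4:**
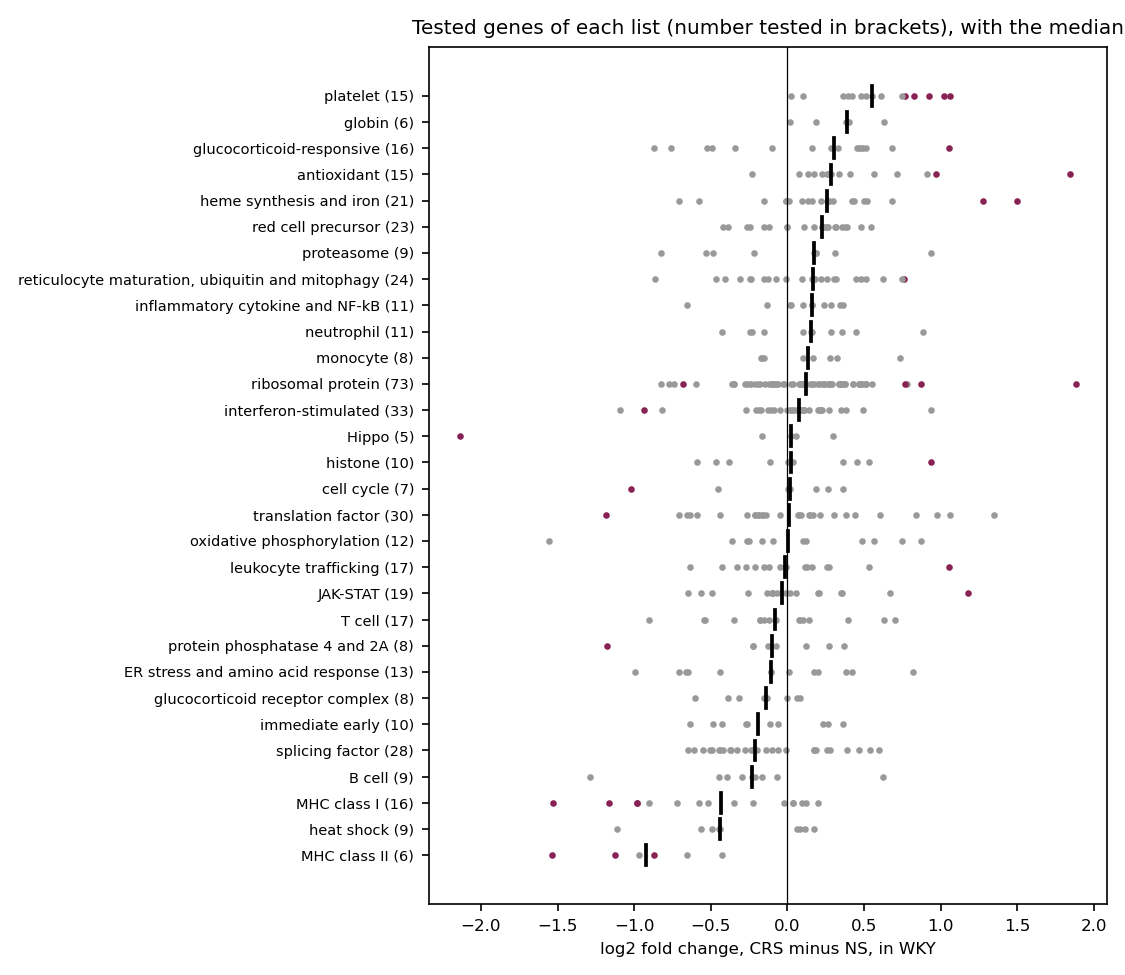
Log2 fold changes (CRS minus NS in WKY) of the tested genes of the 30 lists with at least 5 of them, 1 point per gene, with the median as a vertical bar. Dark points have an unadjusted p under 0.05. The platelet list lies highest, with a median of 0.55, and the MHC class II list lowest, with -0.92.

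Whether the response differed from that of F344 was tested in the same fit. The difference in response gave 0 of 2781 genes (0%) past the threshold, with a smallest edgeR adjusted p of 0.0699, and 106 genes (3.81%) at an unadjusted p under 0.05. DESeq2 and limma-voom also called 0. Platelet genes lay on the higher side in both strains. All 15 were above 0 in F344 as well (median 0.52), and 0 of 15 had an unadjusted p under 0.05 for the difference. Npy had log2 1.21 in F344 and 1.06 in WKY, and the 95% interval of WKY minus F344 ran from -1.14 to 0.84. Ppp4r2 had log2 -1.501 in F344 and -1.18 in WKY. MHC class II genes had 5 of 6 above 0 in F344 (median 0.14) beside 0 of 6 in WKY. For Cd74 the log2 fold change was 0.59 in F344 and -0.65 in WKY (edgeR, unadjusted p of the difference 0.015), which did not pass adjustment (adjusted p = 0.993). In F344, Cd74 read 36.4, 14.6 and 10.3 CPM in NS and 37.8, 28.3 and 34.1 CPM in CRS. Its low NS values were those of replicates 2 and 3, the 2 shallowest F344 libraries. Npy read 52.9, 21.3 and 19.4 CPM in F344 NS, again lowest in these libraries. Their part in the F344 values of the platelet and class II lists was not tested.

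Among the 20 genes chosen in WKY, 6 had the opposite sign in F344. They were Stat5b (log2 -0.13 in F344), Rptor (-0.59), RT1-CE14 (0.52), Rem2 (0.064), Invs (0.15) and H3f3b (-0.0051). All but H3f3b had an unadjusted p under 0.05 for the difference, and none passed adjustment (edgeR adjusted p = 0.993 for each). These genes were picked for being far from 0 in WKY, so a value nearer 0 in F344 carries no weight of its own. The difference in response holds the same WKY values, so its unadjusted p for these genes carries none either. F344 NS replicates 2 and 3 had the smallest scaled library sizes of the series, with 1 count worth 0.609 and 1.144 CPM against 0.202 to 0.436 CPM elsewhere. In WKY, 255 of 4103 tested genes had an unadjusted p under 0.05 when they were left out, with 0 called.

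**Figure D5:**
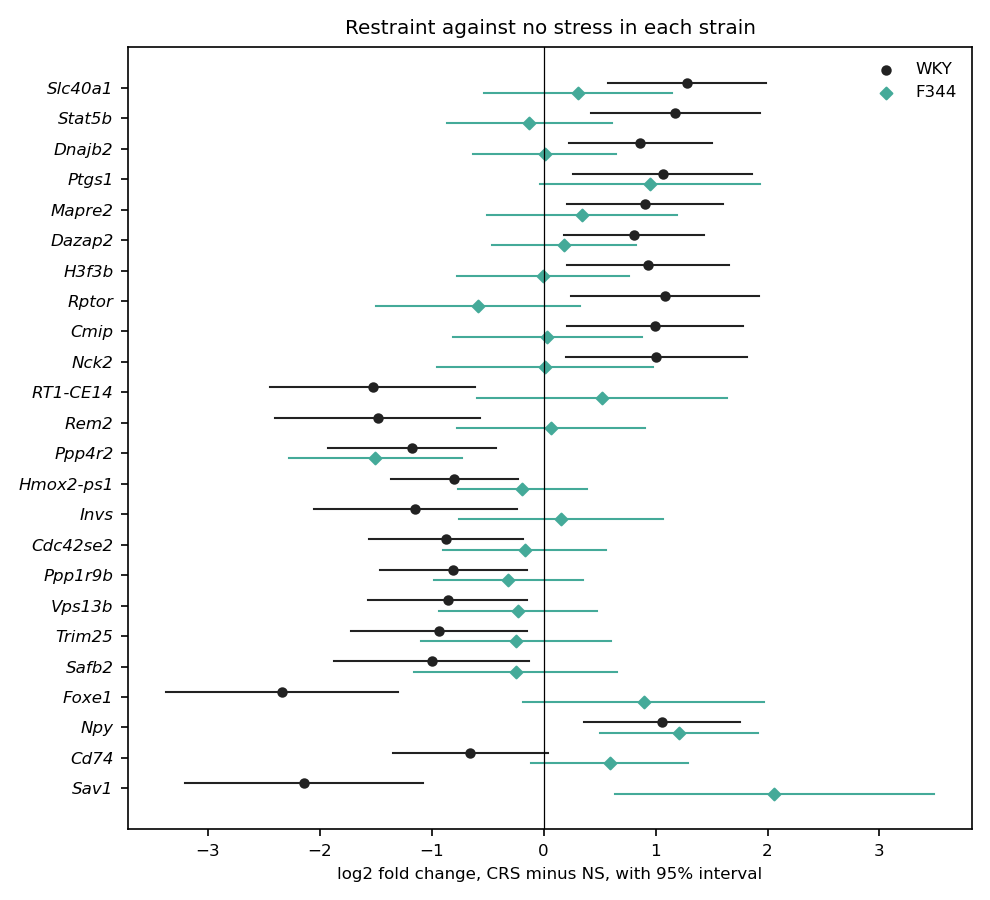
Log2 fold changes of CRS against NS with 95% intervals in WKY (circles) and F344 (diamonds) for the 20 genes chosen in WKY and for Foxe1, Npy, Cd74 and Sav1. Intervals overlap for most genes, Ppp4r2 and Npy lie on the same side in both strains, and Foxe1 and Sav1 lie apart.

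Foxe1 and Sav1 had the smallest adjusted p-values for their strain difference and were among the lowest fold changes in WKY. Foxe1, a forkhead factor of thyroid development, read 2.76, 36.4 and 19.7 CPM in NS and 5.60, 3.05 and 2.30 CPM in CRS (log2 -2.33, SE 0.51, edgeR adjusted p = 0.151). Sav1, the scaffold of the Hippo kinases, read 2.30, 31.1 and 15.5 CPM in NS and 4.59, 2.18 and 3.61 CPM in CRS (log2 -2.14, SE 0.53, edgeR adjusted p = 0.341). Both genes were high in NS replicates 2 and 3 and as low in NS replicate 1 as in the CRS libraries, so the groups overlapped. Without NS replicate 1, edgeR called both (adjusted p = 4.38e-05 and 0.000285). In F344 both genes were higher in every CRS library than in any NS library. Foxe1 read 4.14, 8.53 and 8.01 CPM in NS and 10.9, 13.3 and 11.4 CPM in CRS (log2 0.89, edgeR adjusted p = 0.942). Sav1 read 1.93, 0 and 3.43 CPM in NS and 7.07, 7.85 and 5.88 CPM in CRS (log2 2.06, edgeR adjusted p = 0.851). The F344 NS values of Sav1 rest on 7, 0 and 3 counts, the last 2 from the shallowest F344 libraries. The test of the difference gave adjusted p = 0.0699 for Sav1 (edgeR).

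A few genes were counted in 1 WKY group alone. The rule was counts in all 3 libraries of a group, at least 10 in sum, and 0 in the other group. Of 4585 genes that could have met it, 3 did so for CRS. These were Vps37c (17 counts, 6.11 times the floor), Ppm1f (13 counts, 4.67 times) and Zfp358 (11 counts, 3.95 times). For NS, 3 of 5091 did so: LOC287004 (16 counts, 4.95 times the floor), Ubxn7 (11 counts, 3.40 times) and Pgp (10 counts, 3.09 times). The floor is 3 counts over the group at 0. These ratios leave out the counting error of the group with counts and the variation between libraries. The genes were also picked for the 0, so the ratios are not lower bounds of the fold change. All 6 genes had counts in both F344 groups.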

How the data were processed

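Whole blood RNA of 12 rat libraries was analysed as counts per gene, and groups came from the sample titles. The authors deposited raw whole-number counts of 17337 genes for each library. The tools named in the submitters' processing notes are cutadapt 1.14, TopHat2 2.1.0 and Cufflinks 2.2.1, with build rn6. Not given in the sources used here are the counting program, its annotation and whether it used strand. A further 5 rows that name no gene held 80.9% to 86.6% of all counts in a WKY library and were left out.

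The test was edgeR's quasi-likelihood test (version 4.0.16, R 4.3.3) with TMM scaling and filterByExpr at a minimum count of 10. One fit of 4 group means took all 12 libraries, with Benjamini-Hochberg adjustment over the 2781 genes tested and a threshold of 0.05. SE and 95% intervals follow from the log2 fold change and its F value, and scripts were tested on simulated data. Single measures were compared by two-sided exact permutation tests. Alternatives were DESeq2 1.42.0, limma-voom (limma 3.58.1), other scalings and filters, a replicate block and leaving out each library. WKY libraries, compared in pairs with the dominant features included, differed by far more than sampling noise, so none repeated another. Whether any came from the same rat cannot be told this way.

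Named genes were, per direction, up to 10 of at least 5 CPM with the smallest p and groups that do not overlap, 5 of at least 50 CPM, up to 2 per list with the largest change, 7 stress genes, the 3 most abundant features and genes counted in 1 group alone. All other genes named as list members, such as Iscu, Nfe2l2, Cat, Tap2, Cxcr4, Siglec5 and RT1-Ba, were chosen after their values were seen. The samples and the 39 lists were chosen with earlier results of these data known. A few genes that these rules name are not reported here.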

Additional observations from a re-analysis of the deposited data

How the results depend on the processing

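No gene was called with DESeq2 size factors, upper-quartile scaling, the DESeq2 or limma-voom tests, a stricter filter, removal of the dominant features and globin, WKY alone, or the replicate block. Without a low-count filter 8 genes were called, of which Spt1, Ttr, Lpo and Enpp2 rest on CRS replicate 2 and the others are Foxe1, Sav1, Gemin6 and Prickle1. Leaving out each WKY library gave 0 to 2 calls, the 2 being Foxe1 and Sav1 without NS replicate 1. Genes at an unadjusted p under 0.05 numbered 107 with DESeq2, 568 unfiltered, 42 of 748 under the stricter filter, 104 of 2029 in WKY alone, and 255 without the 2 shallowest F344 libraries, a setting added after the data were seen. Genes with an interval within 2-fold numbered 477 under the stricter filter and 387 to 620 when each WKY library was left out. For the difference in response, upper-quartile scaling called 1 gene (Sav1, adjusted p = 0.0314), no filter 3, leaving out the 2 shallowest F344 libraries 1 (Sema4g), and leaving out a WKY library 0 to 2. Where fewer genes or samples entered, counts change by construction, and otherwise the cause was not tested.

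Deviations of same-numbered NS and CRS libraries had correlations of -0.09, 0.11 and 0.01, which show no pairing by number but cannot exclude one. The replicate block gave 0 calls and 167 genes at an unadjusted p under 0.05. For 93 single genes, up to 16 settings gave 1446 recomputed values, of which 1432 kept their direction and side of the threshold, and 4 (Foxe1 and Sav1) became called. The other 10 changed sign on leaving out a library, with log2 ranges from -0.98 to 0.20 for Rmrp, -0.068 to 0.45 for LOC310926, -0.029 to 0.46 for Rn5-8s, -0.50 to 0.052 for LOC257642, -0.41 to 0.89 for Ftl1, -0.082 to 0.30 for Hsp90ab1, -0.060 to 0.19 for Hspa8, -0.15 to 0.49 for B2m and -0.038 to 0.18 for RT1-S3. Since no gene was called, keeping a side of the threshold says little of size. For 30 list medians, 71 of 477 recomputed values moved by more than the replicate spread, and 15 lists changed sign without a WKY library. With 3 libraries a group and 170507 to 347841 counts outside the dominant features, the intervals of most genes under 5 CPM did not exclude a 2-fold difference.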

Other observations

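Lists not described above held no gene past the adjusted threshold in edgeR. Protein phosphatase 4 and 2A genes had 3 of 8 above 0 (median log2 fold change -0.10), endoplasmic reticulum stress genes 6 of 13 (median -0.10), Hippo genes 3 of 5 (median 0.03), cell cycle genes 5 of 7 (median 0.02), proteasome genes 5 of 9 (median 0.17) and histone genes 6 of 10 (median 0.02). The proteasome median was below 0 in 9 of 15 other settings, and without each WKY library in turn it ran from -0.19 to 0.14. All 4 tested cytotoxic and natural killer cell genes were above 0 (median 0.26), with overlapping sums of 24.5 ± 2.11 CPM in NS and 29.8 ± 7.76 CPM in CRS (SD, n = 3).

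The listed markers of skin, thyroid and salivary gland, which do not include Spt1, summed to 5.30, 36.7 and 21.7 CPM in NS and 9.17, 3.05 and 2.96 CPM in CRS, and Foxe1 was the single one tested. Mbp, a myelin gene also expressed in blood cells, read 2.99, 2.95 and 2.71 CPM in NS and 4.33, 6.54 and 4.27 CPM in CRS (log2 0.76, edgeR adjusted p = 0.920). Summed skeletal muscle markers stood at 11.6 ± 3.24 CPM in NS and 7.19 ± 2.50 CPM in CRS. In CRS replicate 2, the library with Spt1, Ttr, Lpo and Enpp2 counts, Clic6 had 7 counts, Igfbp2 6 and Kl 4. The other 11 libraries had at most 1, 2 and 1. Clic6, Igfbp2 and Kl were also looked up after the values were seen.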
